A study of Mus musculus with 74 samples.

Results

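The 10 immunoglobulin transcripts described here are the heavy chain constant genes Ighm, Ighd, Igha, Ighg1, Ighg2b, Ighg2c and Ighg3, the light chain constant genes Igkc and Iglc1, and Jchain. They were chosen by name and are 10 of the 49480 rows of the raw count table of the series, which holds 74 libraries of immune cells sorted from tumor and spleen. None of the 5 sorts was aimed at B cells. The sorts were macrophages (MF, CD45+CD11b+F4/80+), dendritic cells (DC, CD45+CD11b+CD11c+MHCII+), regulatory T cells (Treg, CD45+TCRb+CD4+CD25+), conventional CD4 T cells (T4, CD45+TCRb+CD4+CD25-) and CD8 T cells (T8, CD45+TCRb+CD8+). No gate in the labels names a B cell marker, included or excluded.

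All mice were C57/BL/6J and carried MC38 tumors, a mouse colon carcinoma line grown under the skin, for 10 days, so no spleen came from a mouse without a tumor. Each library was made by Smart-seq2, a full-length cDNA protocol, from 1000 double-sorted cells. Each sort was taken from tumor and from spleen at 12 months and at 3 months of age, which gives 37 tumor and 37 spleen libraries in 20 groups. A group has 4 libraries, except tumor DC at 12 months, spleen DC at 12 months, spleen DC at 3 months and spleen T4 at 3 months with 3 each, and tumor T4 at 3 months with 2. Replicate 1 of each DC group was male, and the other 70 libraries were female. For replicates 3 and 4 of spleen DC at 3 months the age tag reads 12 months, and the titles were followed. Nothing states that libraries of a group came from separate animals, so the p-values measure only the spread between these libraries, which may be technical.

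An antibody is built from heavy and light chains. In B cells a variable segment of the Ighv family is joined to the heavy chain locus, where Ighm and Ighd supply the first constant regions, and class switching replaces them with Ighg or Igha. A segment of the Igkv or Iglv family is joined to the kappa (Igkc) or lambda (Iglc) constant region. Jchain encodes the small protein that links secreted IgM and IgA, and it is abundant in antibody-secreting plasma cells. Unrearranged, or sterile, transcripts of the Ighm region are known from T lineage cells and from other blood cells, whereas a productive light chain transcript belongs to the B lineage. The spleen is rich in B cells.

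Library totals ran from 1652812 to 9115858 counts (median 4679409.5), so that 3 counts, the limit set by a count of 0, stood for 0.329 to 1.81 CPM in a library. CPM are counts scaled to a library total of 1000000. Intervals and such limits cover counting error only, because copies of a molecule made by PCR could not be recognised. The genes behind the gates followed the labels: median Adgre1 (F4/80) was 556 CPM in MF, median H2-Ab1 was 14664 CPM in DC, median Foxp3 was 1093 CPM in Treg, median Cd4 was 232 CPM in T4 and median Cd8a was 1127 CPM in T8. Cd3e stayed at or under 7.21 CPM in every myeloid library. Single libraries overlapped in H2-Ab1, which reached 14012 CPM in MF and had a lowest value of 11096 CPM in DC. In T4, sorted as CD25-, Il2ra (CD25) reached 318 CPM and Foxp3 354 CPM. The lowest Treg values of Il2ra and Foxp3 were 606 and 869 CPM. Of 103 pairs of replicates, 0 held identical counts. In the GRCm38 annotation the 7 heavy chain genes lie on the minus strand of chromosome 12, from Igha at 113254830-113260236 to Ighm at 113418558-113422730. Igkc lies at chromosome 6, 70726435-70726966 (plus strand), Iglc1 at chromosome 16, 19061618-19062071 (minus strand), and Jchain at chromosome 5, 88519809-88527891 (minus strand).

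The 10 transcripts together took up much more of the spleen libraries than of the tumor libraries in MF and DC, and Ighm was the one found in every sort. Their sum ranged from 0.00481% to 0.0196% of all counts in tumor MF, against 0.134% to 1.07% in spleen MF. In DC it ranged from 0.00527% to 0.0165% in tumor and from 0.166% to 1.06% in spleen. In Treg the ranges were 0.0661% to 0.121% in tumor and 0.0793% to 0.311% in spleen, in T4 0.0223% to 0.0403% in tumor and 0.0831% to 0.739% in spleen, and in T8 0.0141% to 0.0240% in tumor and 0.0570% to 0.0888% in spleen. The T4 and Treg spleen maxima came from 1 library each, described further on.

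**Figure D1:**
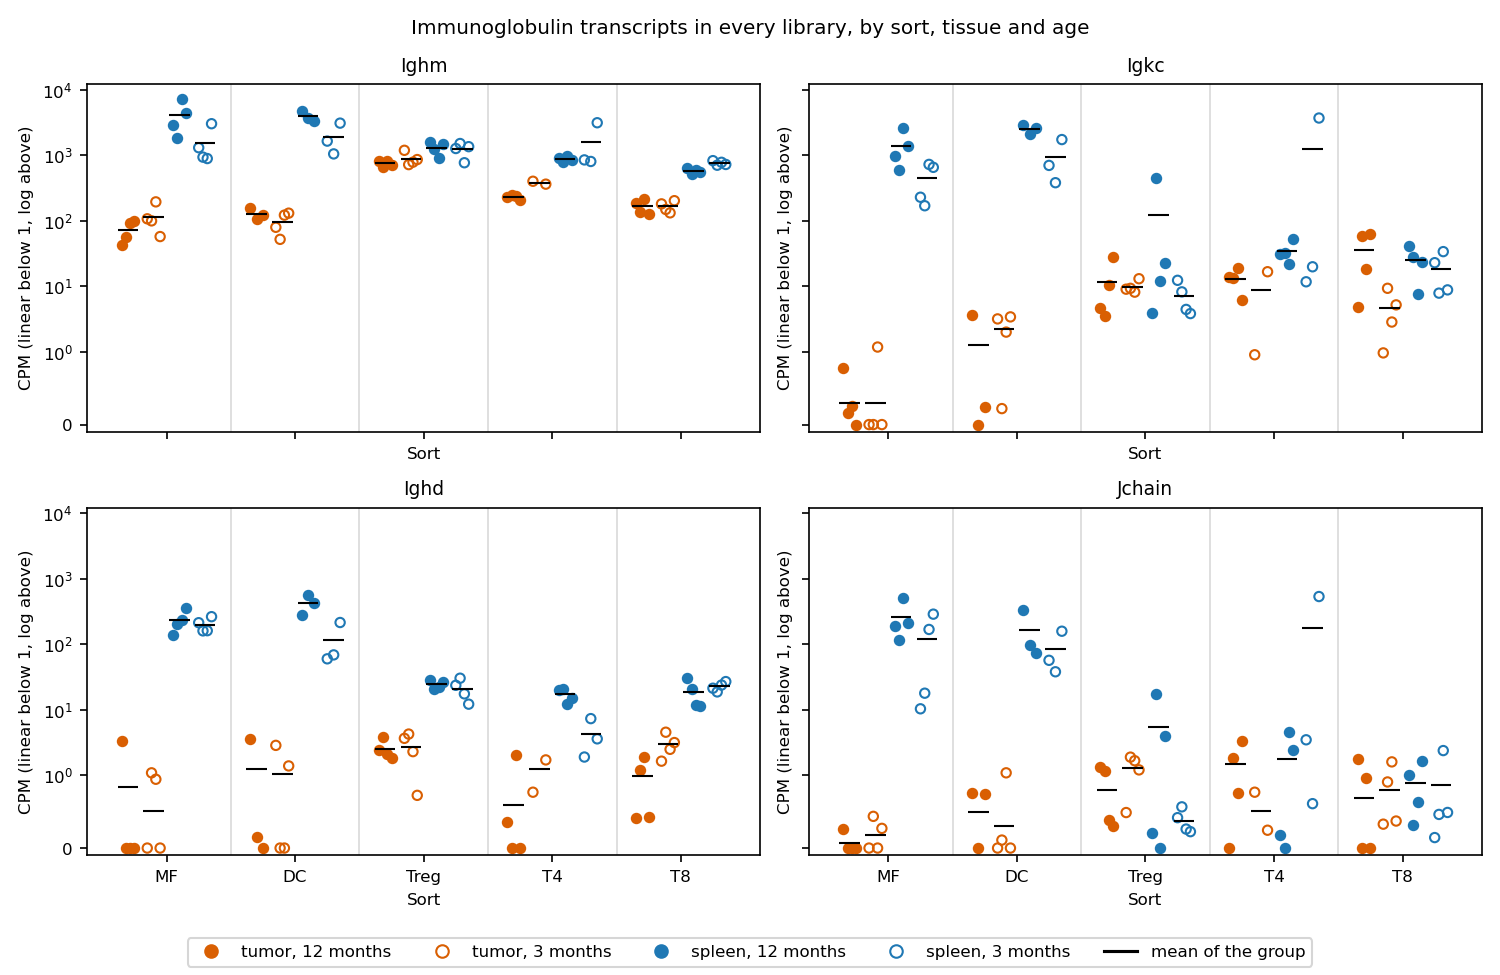
CPM of Ighm, Igkc, Ighd and Jchain in all 74 libraries (1 point each; filled for 12 months, open for 3 months; black bars are group means), by sort, with tumor left of spleen; the axis is linear below 1 and logarithmic above. In MF and DC all 4 transcripts lie lower in every tumor library than in any spleen library, and in the T cell sorts Ighm stays above 100 CPM in both tissues.

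Ighm, the constant region of IgM, was present in all 74 libraries. Among tumor sorts it was highest in Treg, at 817 ± 165 CPM (SD, n = 8), followed by T4 at 280 ± 80.2 CPM (n = 6), T8 at 166 ± 35.6 CPM (n = 8), DC at 110 ± 34.2 CPM (n = 7) and MF at 93.8 ± 47.1 CPM (n = 8). The lowest tumor Treg library (652 CPM) lay above the highest tumor T4 library (401 CPM), and each further neighbour in that order overlapped the next. Among spleen sorts the order was DC at 2922 ± 1356 CPM (n = 6), MF at 2807 ± 2163 CPM (n = 8), Treg at 1265 ± 293 CPM (n = 8), T4 at 1184 ± 860 CPM (n = 7) and T8 at 669 ± 108 CPM (n = 8), and there every neighbour overlapped the next. The order of the sorts by mean thus differed between the tissues, with the myeloid sorts lowest in tumor and highest in spleen.

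Per kilobase of exon, which allows levels of different genes to be set side by side, Igkc averaged more than Ighm in spleen MF, spleen DC and spleen T4, and less in every other sort and tissue. Spleen T4 had 628 ± 456 CPM per kilobase of Ighm and 1038 ± 2605 of Igkc (SD, n = 7), the Igkc mean resting on 1 library described further on. Spleen MF had 1488 ± 1147 CPM per kilobase of Ighm and 1721 ± 1467 of Igkc (SD, n = 8), and spleen DC had 1550 ± 719 of Ighm and 3272 ± 1910 of Igkc (n = 6). Tumor MF had 49.8 ± 25.0 CPM per kilobase of Ighm and 0.558 ± 0.837 of Igkc, and tumor Treg had 433 ± 87.2 of Ighm and 20.3 ± 14.4 of Igkc (n = 8 each). Jchain reached 75.2 ± 63.8 CPM per kilobase in spleen MF and 49.98 ± 43.1 in spleen DC, and stayed at or under 0.455 on average in the tumor sorts.

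In tumor macrophages 8 immunoglobulin transcripts were lower than in spleen macrophages, and Ighm was the only member with more than 4 CPM in any tumor library. Of 9 members that passed the filter on low counts, 8 fell (edgeR quasi-likelihood test, adjusted over all genes), against 27.8% of all 12876 genes tested that fell in that comparison. Members with few or no tumor counts passed that filter through the spleen libraries alone, so their count is a description. Ighm ranged from 43.2 to 194 CPM (median 96.4) in tumor MF, against 889 to 7260 CPM (median 2343) in spleen MF. The libraries of the tissues did not overlap, and the log2 fold change was -4.56 (SE 0.40, adjusted p = 2e-07). Igkc, the kappa light chain, had 0 to 1.18 CPM in tumor MF, with no count in 4 of 8 libraries, against 169 to 2587 CPM (median 688) in spleen MF. Its log2 fold change was -11.15 (SE 0.67, adjusted p = 3.85e-09). Ighd, the constant region of IgD on naive B cells, had 0 to 3.38 CPM in tumor MF against 139 to 361 CPM in spleen MF, a log2 change of -8.22 (SE 0.53, adjusted p = 4.31e-09). Jchain had 0 to 0.435 CPM in tumor MF against 10.3 to 510 CPM in spleen MF, a log2 change of -10.27 (SE 1.08, adjusted p = 2.61e-06). For Igkc, Ighd and Jchain too, every tumor library lay below every spleen library.

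The remaining members of tumor MF rested on 0 to 3 counts over all 8 libraries, so their folds are given from the pooled counts with a counting interval. Iglc1, a lambda light chain, had 3 counts in tumor MF and 1043 in spleen MF, a ratio of 0.00288 (95% interval 0.000593 to 0.00844, adjusted p = 1.13e-09). Among the switched classes, Ighg2b had 2 counts in tumor MF and 3671 in spleen MF, a ratio of 0.000546 (6.6e-05 to 0.00197, adjusted p = 0.00323). Ighg2c had 1 count in tumor MF and 760 in spleen MF (ratio 0.00132, interval 3.33e-05 to 0.00736, adjusted p = 1.44e-06), and Ighg3 had 1 and 1699 (ratio 0.000589, interval 1.49e-05 to 0.00329, adjusted p = 0.00131). These intervals are for counting error, while the spleen libraries themselves were spread widely, from 0.862 to 706 CPM for Ighg2b and from 1.22 to 317 CPM for Ighg3. Ighg1 had no count in tumor MF and 5657 in spleen MF, at least 1880-fold lower by pooled counts, but 1 spleen library held nearly all of them and the test was not passed (adjusted p = 0.0553). Igha, below the filter, had 1 count in tumor MF and 451 in spleen MF.

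Leaving out single libraries moved several of these folds by more than 1.5 times and ended no call. Replicate 1 of tumor MF at 12 months held the only Ighd and Jchain counts of its group. Replicate 3 of tumor MF at 3 months held the only Igkc counts of its group. No fold of these genes is given without these libraries, since a group then has no count. Replicate 4 of spleen MF at 12 months held 3147 of the 3671 Ighg2b counts and 1410 of the 1699 Ighg3 counts of spleen MF. Without it the fitted log2 fold change was -7.70 for Ighg2b, in place of -9.41, and -7.26 for Ighg3, in place of -8.52. It was also -8.62 for Ighg2b without replicate 4, and -7.75 for Ighg3 without replicate 3, of spleen MF at 3 months. Ighg2c, at -8.46 in all libraries, was -7.79 without replicate 2 of spleen MF at 3 months. The tumor MF counts of Ighg2b, Ighg2c and Ighg3 lay in 1 library each, replicates 2, 1 and 4 at 3 months in that order, and no fold is given without these. Iglc1 was -7.81 in all libraries. Its tumor MF counts lay in replicate 1 at 12 months and replicate 3 at 3 months, so no fold is given without either.

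Tumor dendritic cells stood below spleen dendritic cells in the same transcripts. Of 9 members tested 8 fell, where 22.7% of 13981 genes tested fell. Here too, members with few or no tumor counts passed the filter through the spleen libraries alone, so their count is a description. Ighm ranged from 52.0 to 155 CPM (median 121) in tumor DC, against 1047 to 4730 CPM (median 3232) in spleen DC, with no overlap and a log2 change of -4.30 (SE 0.31, adjusted p = 8.23e-07). Igkc had 0 to 3.60 CPM in tumor DC against 381 to 2900 CPM (median 1938) in spleen DC, a log2 change of -9.57 (SE 0.75, adjusted p = 6.24e-06). Ighd had 0 to 3.60 CPM in tumor DC against 59.8 to 562 CPM in spleen DC, a log2 change of -7.24 (SE 0.81, adjusted p = 7.16e-05). Jchain had 0 to 1.09 CPM in tumor DC against 38.0 to 330 CPM in spleen DC, a log2 change of -8.02 (SE 0.78, adjusted p = 2.17e-05). None of these overlapped between the tissues.

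Lambda light chain was more plentiful in spleen DC than in spleen MF by mean, at 166 ± 88.3 CPM of Iglc1 (SD, n = 6) against 28.7 ± 20.2 CPM (n = 8), a difference that was not tested. Iglc1 had 2 counts over the 7 tumor DC libraries and 52.0 to 253 CPM in spleen DC, a pooled ratio of 0.000255 (95% counting interval 3.08e-05 to 0.00092, adjusted p = 3.83e-06). Of the switched classes, Ighg2b had 0 to 1.27 CPM in tumor DC against 7.84 to 2067 CPM in spleen DC (log2 fold change -8.60, SE 1.28, adjusted p = 0.00051), and Ighg2c had 0 to 1.77 CPM in tumor DC against 7.52 to 101 CPM in spleen DC (-7.29, SE 0.90, adjusted p = 6.94e-05). Ighg3 had no count in tumor DC and 1.37 to 48.6 CPM in spleen DC, at least 257-fold lower in tumor by pooled counts (adjusted p = 1.21e-05). Ighg1, below the filter, had no count in tumor DC and at most 4.48 CPM in spleen DC.

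Igha, the constant region of IgA, was the exception in DC. It had a count in all 7 tumor DC libraries, from 0.159 to 9.59 CPM (mean 3.27 ± 3.65, SD), against 0 to 26.9 CPM in spleen DC (mean 9.21 ± 9.86, n = 6). The ranges overlapped, and the log2 fold change of -1.03 did not pass the test (SE 0.86, adjusted p = 0.355). In tumor MF 7 of 8 libraries had no Igha count. Of the called DC folds, Ighg2b moved to -7.52 without replicate 1 of spleen DC at 12 months, to -6.06 without the pair of libraries with conflicting age labels and to -5.76 with their age tags. It was -9.57 without replicate 2 of tumor DC at 12 months and -7.79 without replicate 4 of spleen DC at 3 months. Ighg2c was -6.24 without the pair with conflicting labels and -5.97 with their age tags. Its tumor DC counts lay in replicate 3 at 12 months and replicate 4 at 3 months, so no fold is given without either. Jchain was -9.12 without replicate 3 of tumor DC at 3 months and -7.43 without replicate 4 of spleen DC at 3 months. Igkc moved to -11.26 and Ighd to -9.02 without replicate 1 of tumor DC at 12 months. Each of these calls stayed.

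Transcripts that define B cells moved in the same direction in both myeloid sorts. A list of 13 B cell marker genes, all of them in the table, summed to 13.5 to 52.5 CPM in tumor MF against 1134 to 4187 CPM in spleen MF, and to 32.3 to 44.4 CPM in tumor DC against 871 to 4793 CPM in spleen DC. Pax5, which sets B cell identity, and Tnfrsf13c, the BAFF receptor, had no count in tumor MF at 3 months, and none of the 13 was at 0 in any spleen group. A list of 4 plasma cell markers gave 24.8 to 171 CPM in tumor MF and 25.7 to 233 CPM in spleen MF, and 7.35 to 19.9 CPM in tumor DC against 43.4 to 367 CPM in spleen DC. In MF the members of that sum went opposite ways. Sdc1, or CD138, a surface marker of plasma cells that other cell types also make, averaged 83.8 ± 67.5 CPM in tumor MF and 12.7 ± 7.68 CPM in spleen MF, whereas Mzb1, a chaperone of IgM assembly, averaged 0.132 ± 0.284 CPM in tumor MF and 55.2 ± 62.3 CPM in spleen MF (SD, n = 8 each). Tnfrsf17 was at 0 in all tumor MF libraries. Markers of plasmacytoid dendritic cells summed to 373 to 638 CPM in tumor MF and 144 to 245 CPM in spleen MF, and to 472 to 572 CPM in tumor DC and 892 to 1893 CPM in spleen DC. That sum is not particular to these cells. It was 326 to 440 CPM in spleen T8 at 3 months, where 3 of its 6 genes (Siglech, Klk1 and Cox6a2) had no count. Klk1 also had no count in tumor MF. Erythroid markers summed to at most 2.13 CPM in tumor MF, 213 CPM in spleen MF, 521 CPM in tumor DC and 8.34 CPM in spleen DC. T cell markers summed to at most 58.5 CPM in tumor MF, 73.4 CPM in spleen MF, 49.5 CPM in tumor DC and 61.5 CPM in spleen DC. The part that other cells in the sort had in the immunoglobulin differences was not tested, and in bulk libraries fewer cells of a type and less RNA per cell cannot be told apart.

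By gene, 14 of 16 members of a list of B cell identity and receptor complex genes fell in tumor MF and 1 rose, with a median log2 fold change of -7.66 beside -0.06 over all genes. In DC 15 of 16 fell and 0 rose (median -5.81, beside -0.04 over all genes). In MF, Fcer2a, the low-affinity IgE receptor, showed a log2 change of -8.42 (SE 0.39, adjusted p = 2.72e-12), and the B cell adaptor Bank1 showed -4.37 (SE 0.23, adjusted p = 2.02e-11). Blnk, an adaptor also used by myeloid cells, did not pass (-0.39, SE 0.23, adjusted p = 0.179). In DC, Cd79a, which carries the signal of the B cell receptor, had -10.11 (SE 0.56, adjusted p = 1.44e-07), the inhibitory receptor Cd22 -5.82 (SE 0.33, adjusted p = 1.23e-07) and the B lineage factor Ebf1 -8.10 (SE 0.49, adjusted p = 1.68e-07). Cd72 did not pass there (0.50, SE 0.29, adjusted p = 0.178). Members of this list, like the other lists below, were chosen with earlier results of these data known.

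Genes of plasma cells and antibody secretion split. In MF 3 of 8 tested rose, where 23.9% of all genes rose, and 3 fell, where 27.8% of all genes fell. The median log2 fold change was -0.36. Mzb1 had -8.92 (SE 0.89, adjusted p = 2.72e-06) and Irf4, a factor of plasma cells and of activated lymphoid and dendritic cells, -3.18 (SE 0.35, adjusted p = 5.06e-07), while Pou2af1, a co-activator of immunoglobulin promoters, had 1 count in tumor MF and 2064 in spleen MF (adjusted p = 2.55e-08). Xbp1, which drives secretory capacity in many cell types, did not pass (0.04, SE 0.10, adjusted p = 0.784), nor did Derl3 (-0.76, SE 0.73, adjusted p = 0.401). Sdc1, singled out after its values were seen, rose (2.98, SE 0.52, adjusted p = 0.000245). In DC 4 of 8 rose, where 24.4% of all genes rose, and 3 fell, where 22.7% of all genes fell (median 0.06). Mzb1 at -8.04 (SE 0.66, adjusted p = 5.39e-06) and Pou2af1 at -9.11 (SE 0.83, adjusted p = 2.16e-05) were among the lower. Xbp1 at 0.98 (SE 0.15, adjusted p = 8.67e-05) was among the higher. Irf4 did not pass in DC (-0.39, SE 0.42, adjusted p = 0.479).

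Of a list of other constant and surrogate chain rows, 4 could be tested in MF and 4 in DC. They passed the filter on low counts mainly through the spleen libraries, where they are high, and all of them fell, which is a description of those rows. Iglc2 and Iglc3, lambda constant regions, share 96.5% of aligned bases in their coding sequences, while Iglc1 is 74.8% identical to Iglc2 and 75.4% to Iglc3, and Ighg2b is 87.8% identical to Ighg2c. How reads shared by such copies were counted is not given in the sources used here, so values within these pairs are uncertain. Iglc3 had no count in tumor MF and was at least 611-fold lower there, and Iglc2 had 1 count in tumor MF and 2206 in spleen MF. Of 346 variable segment rows, 11 could be tested in MF and 48 in DC, and all of these fell. Most variable rows thus fell under the filter, and those that passed did so through the spleen libraries.

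In the T cell sorts the difference between tissues was smaller and rested mainly on Ighm and Ighd. In T8, Ighm ranged from 126 to 218 CPM (median 165) in tumor T8, against 521 to 826 CPM (median 673) in spleen T8, without overlap, a log2 change of -1.91 (SE 0.11, adjusted p = 2.89e-12). Ighd had 0.408 to 4.54 CPM in tumor T8 against 11.4 to 30.6 CPM in spleen T8, also without overlap (-3.47, SE 0.32, adjusted p = 4.99e-09). Iglc1 had no count in tumor T8 and 0.313 to 17.0 CPM in spleen T8, at least 59.9-fold lower by pooled counts (adjusted p = 0.000107). Igkc, in contrast, overlapped, with 0.985 to 63.0 CPM in tumor T8 and 7.51 to 41.8 CPM in spleen T8 (-0.64, SE 0.57, adjusted p = 0.398). In all, 3 of 4 members tested fell, where 19.6% of 13285 genes fell. Iglc1 passed the filter on low counts through the spleen libraries alone, so that count is a description.

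In conventional CD4 T cells 2 of 4 members tested fell, where 11.2% of 14661 genes fell. Of these, Ighd passed the filter on low counts through the spleen libraries alone, so the count is a description. Ighm ranged from 207 to 401 CPM in tumor T4 against 788 to 3129 CPM in spleen T4 (log2 fold change -1.97, SE 0.29, adjusted p = 8.33e-05), and Ighd from 0 to 2.03 CPM in tumor T4 against 1.90 to 21.1 CPM in spleen T4, with overlap (-3.06, SE 0.59, adjusted p = 0.000263; -4.11 without replicate 3 of tumor T4 at 12 months). Igkc and Jchain did not pass, at -4.27 (SE 1.51, adjusted p = 0.0648) and -4.41 (SE 2.05, adjusted p = 0.149), and both values hung on 1 spleen library. Without replicate 4 of spleen T4 at 3 months they were -1.08 (adjusted p = 0.0776) and -1.10 (adjusted p = 0.514), and Ighm was -1.48 (adjusted p = 2.53e-09).

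Of the 5 sorts, regulatory T cells had the smallest fitted difference in Ighm between tissues. Ighm ranged from 652 to 1188 CPM (mean 817 ± 165, SD, n = 8) in tumor Treg and from 767 to 1615 CPM (mean 1265 ± 293, n = 8) in spleen Treg, with overlapping libraries and a log2 change of -0.40 (SE 0.14, adjusted p = 0.0215). That call was lost without replicate 1 of spleen Treg at 12 months (-0.33, adjusted p = 0.057) and without replicate 2 of spleen Treg at 3 months (-0.31, adjusted p = 0.0796). Ighd had 0.724 to 4.25 CPM in tumor Treg against 12.2 to 30.3 CPM in spleen Treg, without overlap (-2.83, SE 0.29, adjusted p = 4.34e-08). Ighg3 had 0 to 1.45 CPM in tumor Treg, with no count in 5 of 8 libraries, against 0.675 to 21.0 CPM in spleen Treg (-4.54, SE 0.83, adjusted p = 9.82e-05). Replicate 4 held all Ighg3 counts of tumor Treg at 3 months, so no fold is given without that library. Igkc did not pass, with 3.46 to 28.1 CPM in tumor Treg and 3.83 to 455 CPM in spleen Treg (-1.29, SE 0.88, adjusted p = 0.237). Without the library at 455 CPM, replicate 2 of spleen Treg at 12 months, it was 0.37 (adjusted p = 0.497). Thus 3 of 4 members tested fell, where 27.6% of 13345 genes fell. Ighg3 passed the filter on low counts through the spleen libraries alone, so this count is a description. Iglc1, below the filter, had no count in tumor Treg and 0.225 to 5.33 CPM in spleen Treg, at least 29.8-fold lower by pooled counts.

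B cell markers moved with these differences too, at lower levels. Their sum was 17.1 to 49.4 CPM in tumor T8 against 75.0 to 158 CPM in spleen T8, 12.3 to 38.7 CPM in tumor T4 against 19.8 to 76.5 CPM in spleen T4, and 23.9 to 44.9 CPM in tumor Treg against 86.2 to 153 CPM in spleen Treg. Plasma cell markers summed to at most 6.22 CPM in tumor T8, 5.16 CPM in spleen T8, 8.47 CPM in tumor T4 and 4.27 CPM in tumor Treg, and Mzb1 was at 0 in all tumor T8 and all tumor Treg libraries. The spleen T4 and spleen Treg maxima of 49.9 and 43.8 CPM belonged to the same single libraries that held their Igkc maxima. Their part in the results was not tested.

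Of the B cell identity list, 11 of 13 tested fell in T8 (median log2 fold change -2.41, beside -0.01 over all genes), 5 of 13 in T4 (median -1.53, beside 0.04) and 11 of 14 in Treg (median -1.69, beside -0.05), and 0 rose in any of the 3. In T8 Cd72 had -1.59 (SE 0.17, adjusted p = 8.3e-08) and Cd79b, the partner of Cd79a, -1.75 (SE 0.24, adjusted p = 3.81e-06). In T4 Cd79b had -1.53 (SE 0.44, adjusted p = 0.0108) and Cd72 -1.38 (SE 0.31, adjusted p = 0.00152). In Treg Bank1 had -4.15 (SE 0.45, adjusted p = 1.14e-07) and Ly6d -5.65 (SE 0.77, adjusted p = 6.58e-06), while Cd22 did not pass (-1.08, SE 0.59, adjusted p = 0.137).

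The plasma cell and secretion list leaned the other way in T cells, with 5 of 7 higher and 2 lower in tumor T8 (median 1.65), 4 of 9 higher and 2 lower in T4 (median 1.27), and 4 of 6 higher and 1 lower in Treg (median 0.80). The share of all genes that rose was 22.5% in T8, 16.0% in T4 and 25.9% in Treg, and the share that fell was 19.6%, 11.2% and 27.6%. Prdm1, which encodes Blimp-1 and also acts in effector and regulatory T cells, showed a log2 fold change of 4.45 in Treg (SE 0.26, adjusted p = 1.68e-10), 2.54 in T4 (SE 0.21, adjusted p = 2.76e-10) and 2.87 in T8 (SE 0.27, adjusted p = 4.81e-08). Irf4 had 0.78 in Treg (SE 0.12, adjusted p = 1.53e-05), 1.89 in T4 (SE 0.19, adjusted p = 1.78e-08) and 3.17 in T8 (SE 0.23, adjusted p = 6.8e-10). Pou2af1 had -2.76 in T4 (SE 0.42, adjusted p = 1.18e-05). Given to complete the T cell sorts, it had -4.94 in Treg (SE 0.73, adjusted p = 1.59e-05) and -3.77 in T8 (SE 0.60, adjusted p = 2.91e-05). The plasma cell markers themselves, singled out after their values were seen, split. Sdc1 rose in T8 (3.87, SE 0.92, adjusted p = 0.0015), at 1.90 ± 1.62 CPM in tumor T8 and 0.112 ± 0.207 CPM in spleen T8 (SD, n = 8 each), and did not pass in T4 (3.30, SE 1.39, adjusted p = 0.0813), where Tnfrsf17 rose, at 1.71 ± 1.75 CPM in tumor T4 (n = 6) and 0.0452 ± 0.119 CPM in spleen T4 (n = 7; edgeR adjusted p = 0.0382). Mzb1 fell in T8, with no count in tumor and up to 5.16 CPM in spleen (adjusted p = 0.000458), and in T4, with up to 0.605 CPM in tumor and 48.3 CPM in spleen (adjusted p = 0.00586). Of the other constant and surrogate rows, Iglc2 fell in Treg (-4.57, SE 0.87, adjusted p = 0.00023).

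Over all 74 libraries in one fit that gave each sort equal weight, 5 of 10 members fell in tumor (24.8% of 20244 genes fell). They were Ighm (log2 fold change -2.63, SE 0.14, adjusted p = 3.59e-24), Ighd (-4.96, SE 0.25, adjusted p = 6.16e-25), Igkc (-5.39, SE 0.47, adjusted p = 1.12e-14), Jchain (-4.60, SE 0.90, adjusted p = 2.21e-05) and Ighg3 (-5.12, SE 1.51, adjusted p = 0.004). For the other 5, each without a count in whole groups, that fit gave no usable estimate. Ighg3 also had no count in 4 groups, so its fold is uncertain. Since Ighg3 passed the filter on low counts through spleen libraries alone, the count of members that fell is a description. Ighg3 lost its call without all replicates 1, without all replicates 4 and without the 5 libraries led by a single segment pair that are described below. Without the MF libraries Igkc was -3.96 and Jchain -3.18, and without those 5 libraries they were -4.25 and -3.38.

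Contrasts added after the values had been seen tested whether the tissue difference itself differed between sorts. The tumor minus spleen difference was more negative in the mean of MF and DC than in the mean of Treg, T4 and T8 for 4 members, where 20.7% of genes were called in that direction and the median over all genes was -0.25. The difference of log2 fold changes was -2.98 for Ighm (SE 0.25, adjusted p = 1.4e-14), -4.63 for Ighd (SE 0.59, adjusted p = 4.24e-09), -8.25 for Igkc (SE 0.93, adjusted p = 1.26e-10) and -7.58 for Jchain (SE 1.59, adjusted p = 0.000103). Ighd missed the threshold without all replicates 3 (-3.94, adjusted p = 0.0504), and Jchain without all replicates 1 (adjusted p = 0.146). Without all replicates 1, tumor MF at 12 months held no Ighd or Jchain count, so their differences are not given there. Igkc was -9.70 without all replicates 1 and -9.48 without the 5 libraries led by a single pair. In the contrast of myeloid and T cell sorts, Igha, Ighg2b, Ighg2c, Ighg3 and Iglc1 had no usable estimate and could not be called. In Treg, against the mean of T4 and T8, the difference was called for 1 of the 10 members. For Ighg1 and the same members that contrast gave no usable estimate. Ighm differed by 1.62 (SE 0.33, adjusted p = 0.00029), with 5.32% of genes called higher, so its tumor level was lowered less in Treg. In spleen itself, Ighg3 was higher in Treg than in T4 and T8 (log2 difference 3.14, SE 0.75, adjusted p = 0.000471), the 1 member called in a contrast where 23.7% of genes were called higher. Replicate 4 held all Ighg3 counts of spleen T4 at 3 months, so no difference is given without that library. Ighg1 had no usable estimate in that contrast.

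The balance of Ighm to Igkc set the sorts apart in another way. Spleen DC had a median of 1.74 Ighm counts per Igkc count (range 1.30 to 2.75) and spleen MF 3.09 (1.23 to 5.70). Tumor MF had a median of 260 (55.3 to 370) in the 4 libraries with any Igkc count, and tumor DC 52.0 (25.0 to 491) in 6 of 7. In the T cell sorts the medians were 27.5 (2.00 to 184) in tumor T8 and 29.9 (15.4 to 89.6) in spleen T8, 20.1 (12.5 to 418) in tumor T4 and 29.8 (0.847 to 72.5) in spleen T4, and 86.8 (25.2 to 188) in tumor Treg and 138 (2.71 to 415) in spleen Treg. The median was thus above that of the myeloid spleen sorts in each of them, but 4 T cell libraries had ratios as low as those of spleen MF. They were replicates 2 and 4 of tumor T8 at 12 months (2.30 and 2.00), replicate 2 of spleen Treg at 12 months and replicate 4 of spleen T4 at 3 months. Ighm per unit of B cell marker sum differed likewise, with medians of 2.73 in tumor MF and 0.995 in spleen MF, 2.84 in tumor DC and 1.18 in spleen DC, against 25.6 in tumor Treg and 10.5 in spleen Treg, 16.0 in tumor T4 and 20.8 in spleen T4, and 7.11 in tumor T8 and 5.95 in spleen T8. Both ratios are descriptions without a test.

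**Figure D2:**
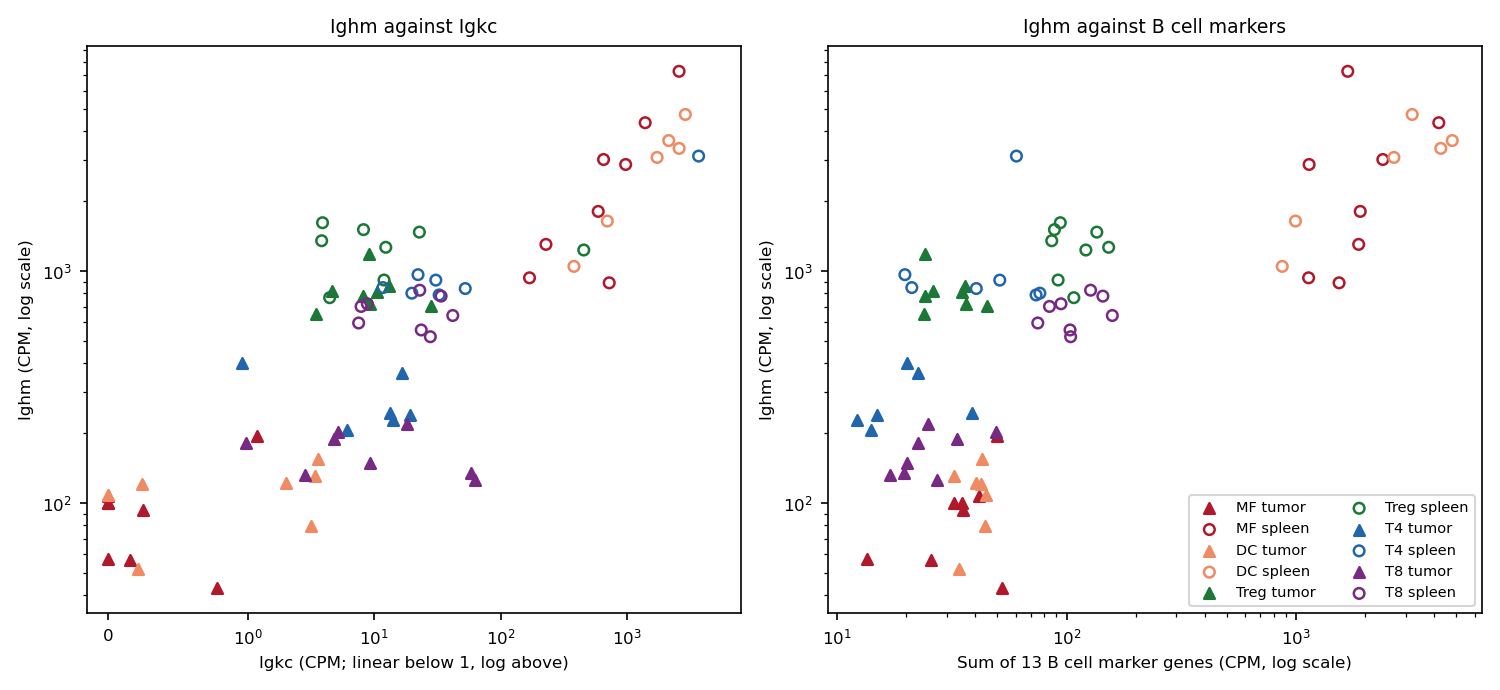
Ighm CPM (vertical, log scale) against Igkc CPM (left) and against the summed CPM of 13 B cell marker genes (right) in every library; filled triangles are tumor and open circles spleen, coloured by sort. Spleen MF and DC lie together at high values of both measures, whereas Treg libraries hold 652 to 1615 CPM of Ighm with at most 153 CPM of the marker sum, and 1 T4 and 1 Treg spleen library stand to the right of their sorts in Igkc.

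Heavy chain classes differed between single spleen libraries of the myeloid sorts. Ighm made up 65.6% to 96.0% of the heavy chain counts in 13 of the 14 spleen MF and DC libraries. In the remaining one, replicate 3 of spleen MF at 3 months, Ighm was 38.2% and Ighg1 53.8%, with 1251 CPM of Ighg1 against 0, 3.66 and 4.20 CPM in the other replicates. In replicate 4 of spleen MF at 12 months Ighg2b was 12.1% (706 CPM) and Ighg3 5.40% (317 CPM), while the other 3 libraries of that group had 11.6 to 26.9 CPM of Ighg2b and 12.9 to 18.5 CPM of Ighg3. In replicate 1 of spleen DC at 12 months Ighg2b was 28.7% (2067 CPM), against 299 and 130 CPM in replicates 3 and 4. Across sorts, switched classes (all but Ighm and Ighd) made up a median of 0.114% of heavy chain counts in tumor MF and 2.82% in spleen MF, and 0.947% in tumor DC and 5.96% in spleen DC. The medians were 0.159% in tumor Treg and 0.510% in spleen Treg, 0.0864% in tumor T4 and 0.191% in spleen T4, and 0.519% in tumor T8 and 0.0126% in spleen T8, where tumor was the higher one.

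**Figure D3:**
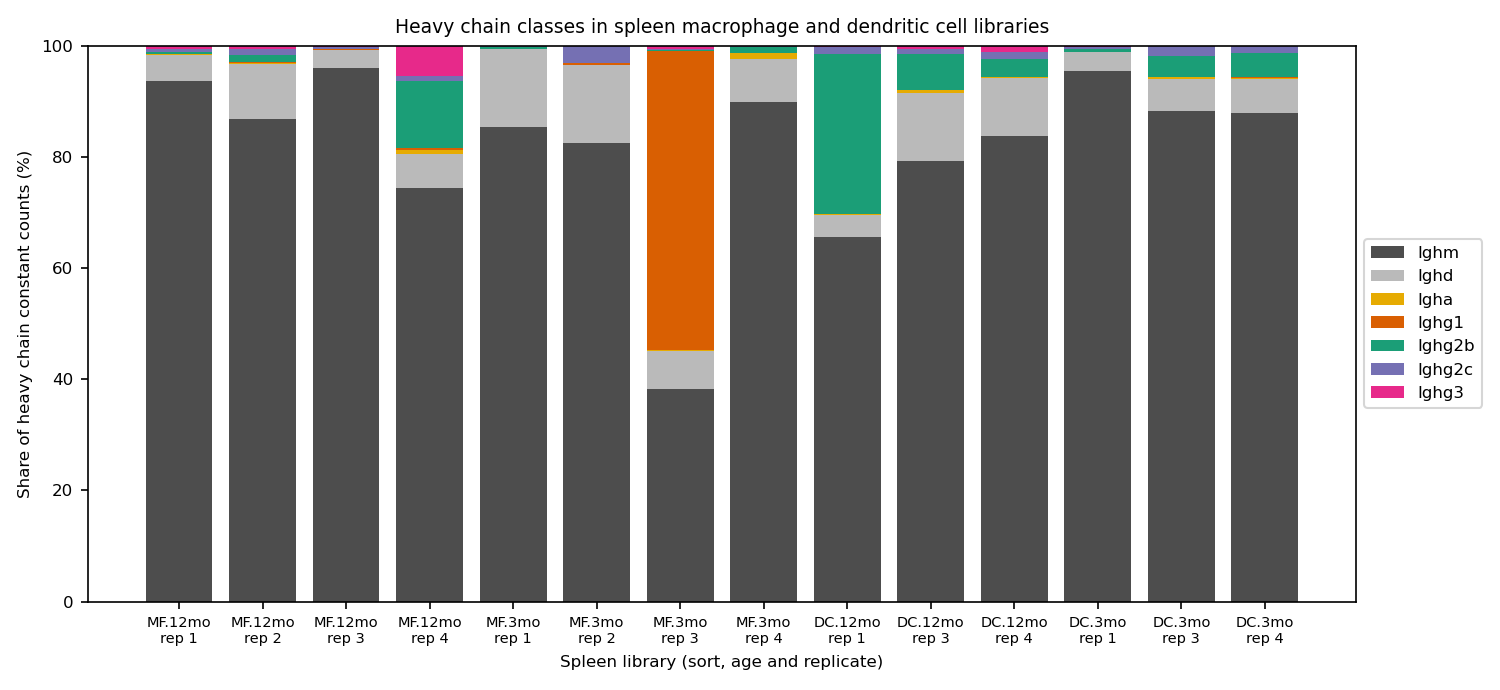
Share of each heavy chain constant gene among the heavy chain counts of each of the 14 spleen MF and DC libraries, 1 bar per library, 12 months left of 3 months within a sort. Ighm is the largest class in 13 bars, and Ighg1 is the largest in replicate 3 of MF at 3 months.

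Variable segments gave a second view of the same libraries. The table holds 183 Ighv, 160 Igkv and 3 Iglv rows, and as background a mature B cell and its progeny express one rearranged heavy and one rearranged light chain segment. Of the 74 libraries 51 had at least 50 counts over these rows, 21 of them from tumor, and 16 had at least 100 counts in both the Ighv and the Igkv rows, all from spleen. In 5 of these 16 a single Ighv row and a single Igkv row each held at least 50% of their locus, and the 5 pairs shared no row. In the other 11 the leading Ighv row held 8.55% to 65.6% and the leading Igkv row 6.59% to 68.9%.

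The strongest case was replicate 4 of spleen T4 at 3 months. Ighv2-9 held 624 of its 651 Ighv counts (95.8%, 95% Wilson interval 94.0% to 97.1%), and Igkv8-27 held 9312 of its 9323 Igkv counts (99.9%, 99.8% to 99.9%). Its levels were 125 CPM of Ighv2-9 and 1859 CPM of Igkv8-27, against 0 CPM and at most 3.05 CPM in the other spleen T4 libraries at 3 months. The same library had 3695 CPM of Igkc, against 11.7 and 19.8 CPM in its fellow replicates, 534 CPM of Jchain against 3.48 and 0.610 CPM, and 3129 CPM of Ighm against 848 and 802.5 CPM. Its plasma cell marker sum was 49.9 CPM and its B cell marker sum 60.5 CPM. Switched classes were near absent there, with Ighm at 99.6% of heavy chain counts.

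Replicate 2 of spleen Treg at 12 months was the other T cell library of that kind. Ighv1-5 held 581 of 617 Ighv counts (94.2%, 95% Wilson interval 92.0% to 95.8%) and Igkv3-2 held 499 of 528 Igkv counts (94.5%, 92.2% to 96.2%). This library had 1366 CPM of Ighg2b, 52.0% of its heavy chain counts, against 0 CPM in the other 3 replicates, 455 CPM of Igkc against 3.89, 11.9 and 22.7 CPM, and 17.3 CPM of Jchain against 0.205, 0 and 3.97 CPM. Its Ighm, at 1232 CPM, lay within the 914 to 1615 CPM of the other replicates. Its plasma cell marker sum was 43.8 CPM, against 0.271 to 5.52 CPM in the others.

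The sequences of these 4 segments are shown because they account for nearly all variable counts of the pair of libraries. They are the last 300 bases of each segment's last coding exon in GENCODE release M21 on GRCm38, written 5′ to 3′ on the coding strand, with capitals from the last TGT, the codon of the conserved cysteine, to the end of the segment. The genomic positions are chr12:113879096-113879395 (minus strand) for Ighv2-9, chr6:70171809-70172108 (minus strand) for Igkv8-27, chr12:114513330-114513629 (minus strand) for Ighv1-5 and chr6:70698768-70699067 (plus strand) for Igkv3-2.
Ighv2-9: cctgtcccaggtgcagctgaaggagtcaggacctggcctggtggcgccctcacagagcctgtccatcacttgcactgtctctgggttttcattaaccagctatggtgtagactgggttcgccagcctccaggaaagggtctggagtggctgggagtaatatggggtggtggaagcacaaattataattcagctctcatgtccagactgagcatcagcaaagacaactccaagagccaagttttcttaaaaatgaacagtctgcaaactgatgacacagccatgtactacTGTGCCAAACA
Igkv8-27: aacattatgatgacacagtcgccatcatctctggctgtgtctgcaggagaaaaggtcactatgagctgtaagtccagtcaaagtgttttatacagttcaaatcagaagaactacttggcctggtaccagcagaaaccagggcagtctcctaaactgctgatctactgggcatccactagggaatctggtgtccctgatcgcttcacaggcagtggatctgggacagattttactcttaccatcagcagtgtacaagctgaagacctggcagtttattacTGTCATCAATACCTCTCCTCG
Ighv1-5: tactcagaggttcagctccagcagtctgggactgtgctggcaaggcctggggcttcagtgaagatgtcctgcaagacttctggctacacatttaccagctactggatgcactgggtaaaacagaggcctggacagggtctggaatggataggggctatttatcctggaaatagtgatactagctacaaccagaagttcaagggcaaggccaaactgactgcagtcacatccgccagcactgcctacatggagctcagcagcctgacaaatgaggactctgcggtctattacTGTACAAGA
Igkv3-2: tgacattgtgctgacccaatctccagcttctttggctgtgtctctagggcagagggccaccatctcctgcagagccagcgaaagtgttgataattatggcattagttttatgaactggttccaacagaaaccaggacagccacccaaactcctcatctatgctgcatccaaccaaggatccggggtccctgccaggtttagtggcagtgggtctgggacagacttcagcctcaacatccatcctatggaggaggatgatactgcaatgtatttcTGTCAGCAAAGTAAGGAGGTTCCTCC

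The other 3 libraries led by a single pair were spleen MF. In replicate 3 at 3 months, the library rich in Ighg1, Ighv14-2 held 66.7% of Ighv counts (314 of 471) and Igkv1-117 held 56.7% of Igkv counts (407 of 718). In replicate 4 at 3 months Ighv4-1 held 55.9% and Igkv1-99 64.8%, and in replicate 3 at 12 months Ighv5-6 held 54.7% and Igkv5-39 54.5%. The last of these also had the highest Ighm, Igkc and Jchain of all spleen MF libraries, at 7260, 2587 and 510 CPM. Without these 3 libraries the MF tumor against spleen difference was -10.27 for Igkc (adjusted p = 1.03e-09), -8.39 for Jchain (adjusted p = 4.21e-10), -8.71 for Ighg2b (adjusted p = 0.0203) and -7.74 for Ighg3 (adjusted p = 0.0176), so the calls were kept.

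**Figure D4:**
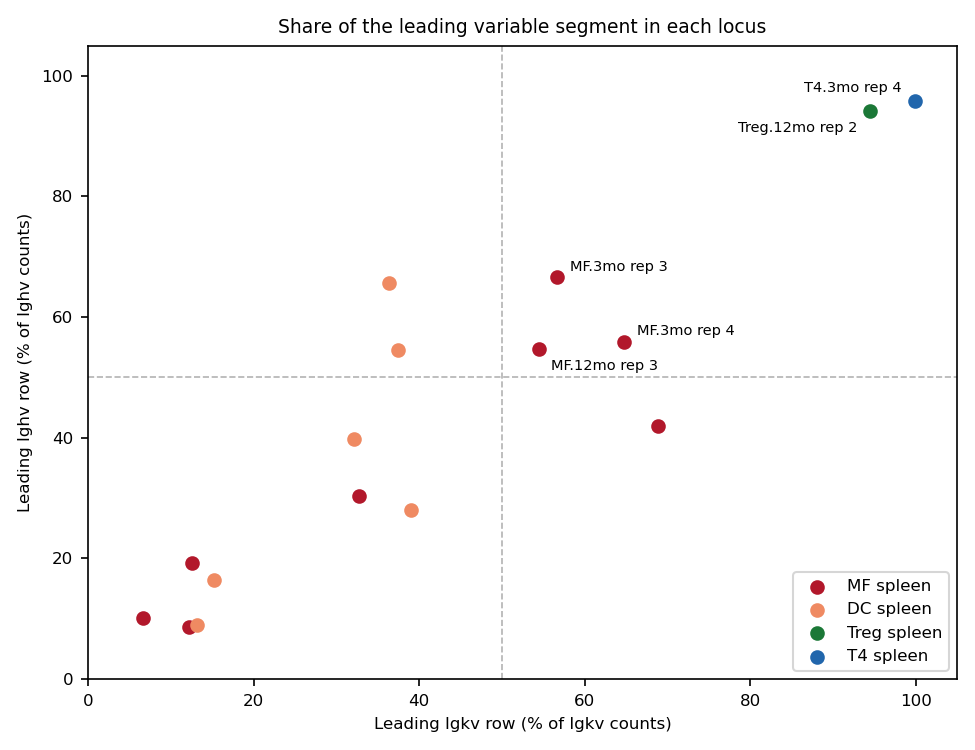
Share of the leading Ighv row (vertical) against the share of the leading Igkv row (horizontal) in the 16 spleen libraries with at least 100 counts in each locus; dashed lines mark 50%, and the 5 libraries above both are labelled by sort, age and replicate. The T4 and Treg libraries lie in the upper right corner, at or above 94.2% on both axes.

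Age differences of these transcripts were few and depended on single libraries or on the settings of the fit. In spleen macrophages 0 of 9 members tested passed the threshold for 12 against 3 months, as did 0% of 12131 genes. An unadjusted p under 0.05 was found for 4 of the 9, and for 736 of the 12131 genes. Ighm had 2879, 1807, 7260 and 4359 CPM at 12 months, against 1302, 935, 889 and 3025 CPM at 3 months, with overlap and a log2 change of 1.47 (SE 0.55, adjusted p = 0.804). Igkc had 977, 592, 2587 and 1395 CPM at 12 months, against 228, 169, 724 and 653 CPM at 3 months (1.70, SE 0.63, adjusted p = 0.787). Without the 3 libraries led by a single pair, Jchain passed, higher at 12 months (3.64, adjusted p = 0.0104). In tumor MF only Ighm could be tested, with 43.2, 56.9, 93.2 and 99.5 CPM at 12 months against 107, 99.5, 194 and 57.3 CPM at 3 months (-0.70, SE 0.37, adjusted p = 0.809), and 0% of 11007 genes passed.

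In spleen dendritic cells 1 of 9 members tested was higher at 12 months, where 0.443% of 12650 genes were higher. This was Ighg3, with 14.4, 27.8 and 48.6 CPM at 12 months, against 4.16, 1.37 and 4.48 CPM at 3 months, without overlap (log2 fold change 2.99, SE 0.48, adjusted p = 0.0169). The call was lost without replicate 3 (adjusted p = 0.0699) or replicate 4 (adjusted p = 0.151) at 12 months, in a fit of all 4 DC groups (adjusted p = 0.286) and when the age tags replaced the titles (adjusted p = 0.929). Igkc had 2900, 2142 and 2590 CPM at 12 months, against 699, 381 and 1733 CPM at 3 months, and Ighm 4730, 3651 and 3377 CPM against 1642, 1047 and 3088 CPM. Neither overlapped between the ages, and neither passed, at 1.48 (SE 0.72, adjusted p = 0.553) and 1.04 (SE 0.50, adjusted p = 0.543). Ighd (1.95, SE 0.49, adjusted p = 0.279) and Ighg2c (1.53, SE 0.84, adjusted p = 0.583) were the same in this respect. For age, the share of all genes whose libraries did not overlap is not given here, so lack of overlap is a description in every sort.

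That comparison rested on the libraries with conflicting labels. Without replicate 4 at 3 months alone 6 members were called, and without replicate 3 alone 2. Without both, the 1 library left at that age is replicate 1, which is male. With sex in the fit, the age difference then sets replicate 1 at 12 months against replicate 1 at 3 months, and the spread comes from the female pair at 12 months, so it is given as a value with no test, at 1.56 for Ighm, 2.08 for Igkc and 2.57 for Jchain. B cell markers summed to 3207 to 4793 CPM in spleen DC at 12 months against 871 to 2670 CPM at 3 months, and the B cell adaptor Bank1 was higher at 12 months (1.89, SE 0.26, adjusted p = 0.0283), the only 1 of 16 identity genes that passed. The part of B cell transcripts in this difference was not tested. In tumor DC 0 of 3 members passed, as did 0% of 12090 genes, and Igha had 1.33, 4.22 and 0.739 CPM at 12 months against 0.159, 0.329, 6.53 and 9.59 CPM at 3 months (-0.34, SE 1.29, adjusted p = 1).

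In spleen conventional CD4 T cells 1 of 4 members tested was higher at 12 months, where 1.96% of 11726 genes were higher. Ighd had 20.3, 21.1, 12.0 and 15.2 CPM at 12 months, against 1.90, 7.32 and 3.59 CPM at 3 months, without overlap (log2 fold change 1.85, SE 0.46, adjusted p = 0.0335). The call was lost in 6 of the 7 fits that left out a library, with log2 fold changes from 1.54 to 1.98 and an adjusted p of up to 0.177, and in a fit of all 4 T4 groups (adjusted p = 0.121). The libraries whose absence ended it were all 4 at 12 months and replicates 1 and 4 at 3 months. Igkc and Jchain were -5.41 (SE 2.18, adjusted p = 0.262) and -6.82 (SE 2.52, adjusted p = 0.23), and 0.99 (adjusted p = 0.258) and -0.33 (adjusted p = 0.951) without the library led by Ighv2-9 and Igkv8-27. Iglc1, below the filter, had no count in the 4 libraries at 12 months and 2.21, 0.305 and 19.2 CPM at 3 months, at least 46.4-fold lower at 12 months by pooled counts, most of them from the same library. Beside these members, Irf4 was higher at 12 months (1.36, SE 0.30, adjusted p = 0.0183), the only 1 of 6 plasma cell and secretion genes tested that passed. In tumor T4 0 of 2 members passed, where 0.0311% of 12882 genes did. Ighm had 228, 245, 239 and 207 CPM at 12 months against 401 and 362 CPM at 3 months, without overlap (-0.75, SE 0.18, adjusted p = 0.274).

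In CD8 T cells 0 of 3 members passed in spleen, where 1.02% of 11677 genes did. Ighm had 643, 521, 597 and 557 CPM at 12 months against 826, 703.5, 779 and 722 CPM at 3 months (mean 579 ± 52.5 against 758 ± 55.9 CPM, SD, n = 4 each). Every library at 12 months lay below every library at 3 months, and the log2 fold change of -0.38 did not pass (SE 0.10, adjusted p = 0.0847). Cd22 was higher at 12 months in spleen T8 (1.47, SE 0.31, adjusted p = 0.0171), the only 1 of 13 B cell identity genes tested that passed. The median log2 fold change of those 13 was -0.38, toward lower values at 12 months. In tumor T8 0 of 3 members passed, as did 0% of 11804 genes. Igkc had 4.76, 58.3, 18.0 and 63.0 CPM at 12 months against 0.985, 9.31, 2.84 and 5.20 CPM at 3 months, with overlap (2.96, SE 0.91, adjusted p = 1).

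Regulatory T cells showed no member past the threshold for age in spleen (0 of 4, where 0.0489% of 12261 genes passed) or in tumor (0 of 3, and 0% of 11698 genes). Spleen Igkc showed a log2 change of 4.09 (SE 1.72, adjusted p = 0.94), and 0.80 (adjusted p = 0.998) without replicate 2 at 12 months. Ighm had 1615, 1232, 914 and 1471 CPM in spleen at 12 months against 1265, 1508, 767 and 1350 CPM at 3 months (0.08, SE 0.22, adjusted p = 0.985), and 822, 652, 808 and 708 CPM in tumor at 12 months against 1188, 719, 783 and 858 CPM at 3 months (-0.25, SE 0.16, adjusted p = 0.999).

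No member passed the test of whether the age difference itself differed between tumor and spleen, in any sort or over all sorts (edgeR). Ighg1 in MF, Ighg3 in DC and Iglc1 in T8 had no usable estimate in that test. Over all sorts Igha, Ighg1, Ighg2b, Ighg2c, Ighg3 and Iglc1 had none. The share of all genes called was 0% in MF, DC and Treg, 0.668% in T4, 0.143% in T8 and 0.138% over all sorts. An unadjusted p under 0.05 was found for 1 of 9 members in MF (Ighm, -2.17, SE 0.70, adjusted p = 0.945), 0 of 9 in DC, 1 of 4 in Treg, 1 of 4 in T4, 2 of 4 in T8 and 1 of 10 over all sorts. Among all genes it was found for 619 of 12876 in MF, 778 of 13981 in DC and 521 of 13345 in Treg. The same count was 1516 of 14661 in T4, 630 of 13285 in T8 and 1458 of 20244 over all sorts. Over all sorts 0 of 10 members passed for age in spleen, where 0.776% of genes did, and 0 of 10 in tumor, where 0.0346% did. Igha, Ighg1 and Ighg2b had no usable estimate there in spleen, and Ighg1, Ighg2b, Ighg2c, Ighg3 and Iglc1 had none in tumor. For the age comparisons in which no member passed, an unadjusted p under 0.05 was found for 2 of 10 members over all sorts in spleen and 0 of 10 in tumor, 1 of 3 in spleen T8, 2 of 3 in tumor T8, 1 of 2 in tumor T4, and 0 in spleen Treg, tumor Treg, tumor DC and tumor MF. Among all genes it was found over all sorts for 2578 of 20244 in spleen and 1392 of 20244 in tumor. The count was 909 of 11677 in spleen T8, 486 of 11804 in tumor T8 and 682 of 12882 in tumor T4. It was 653 of 12261 in spleen Treg, 461 of 11698 in tumor Treg, 158 of 12090 in tumor DC and 663 of 11007 in tumor MF.

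Across the 74 libraries, the genes most like Ighm in rank were Cd79a (Spearman rho 0.870), Slc44a2 (0.862), Ralgps2 (0.857), Hdac10 (0.856) and Fam129c (0.839), of 12463 genes with a mean of at least 1 CPM. Those most like Igkc were Pou2af1 (0.799), Iglc2 (0.782), Adgre5 (0.777), Slc12a2 (0.764) and Pik3c2b (0.759). Jchain had weaker likeness, led by Adgre5 (0.641), Kcnj16 (0.632) and Mkrn1 (0.613). Among the members, Igkc ranked most like Ighm (0.764) and Ighd (0.728) and least like Igha (0.193). These values are descriptions, since libraries of a sort share their cell type and tissue.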

How the data were processed

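The authors deposited raw counts per gene for 74 Smart-seq2 libraries. The submitters' processing notes name STAR 2.5.3, featureCounts and mm10. For these counts, which gene annotation was counted, with what strand setting, and how reads with several alignments were handled is not given here, so reads of antisense partners and of near-identical copies cannot be told apart. Library totals ran from 1652812 to 9115858 counts. CPM were computed here from these totals. Groups follow the titles.

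Tests used edgeR 4.0.16 (robust quasi-likelihood, TMM, filterByExpr with a minimum count of 10) in R 4.3.3, Benjamini-Hochberg adjustment over all genes tested and a threshold of 0.05. Each sort's 4 groups entered 1 fit for tissue and for the age by tissue interaction, age was fitted within a tissue, and sex was a covariate in DC and in the fit of all sorts. The 3 added contrasts between sorts, and the fits without libraries led by a single segment pair, were chosen after seeing the data. Alternatives were DESeq2 1.42.0, DESeq2 size factors, no filter on low counts, a replicate block, all 4 groups in the age fits, the age tags, and leaving out libraries or sorts. Code was tested on simulated data. Python 3.11.15 and scipy 1.17.1 gave intervals and correlations.

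The members and lists were chosen with earlier results of these data known. Of each list, up to 3 called genes with the smallest adjusted p and up to 2 abundant genes that were not called could be named per comparison. The values of 1 list gene that the rule would name are not reported here. Coordinates and segment sequences are from GENCODE release M21 on GRCm38, the same assembly as mm10.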

Additional observations from a re-analysis of the deposited data

Results flagged for a closer look

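In groups of 4 libraries, 51 combinations of a member and a group were screened for a library far from the other 3, and 9 had one. The cut-off flags about 1 in 20 groups when values are independent and normally distributed. These CPM were skewed and several flags came from the same library, so the 9 cannot be set against that rate. In spleen MF at 12 months, replicate 4 stood apart in Igha at 41.3 CPM, Ighg2b at 706 CPM and Ighg3 at 316.5 CPM. In spleen MF at 3 months, replicate 4 stood apart in Igha at 32.7 CPM, replicate 3 in Ighg1 at 1251 CPM and Ighg3 at 13.5 CPM, and replicate 2 in Ighg2c at 33.4 CPM. In spleen Treg at 12 months, replicate 2 stood apart in Ighg2b at 1366 CPM and Igkc at 455 CPM.

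In contrasts added after the values had been seen, the tumor minus spleen difference differed between myeloid and T cell sorts for 4 of 10 members. Of all genes 20.7% were called in that direction, and the median over all genes was -0.25. The myeloid sorts' log2 fold change minus that of the T cell sorts was -4.63 for Ighd, -2.98 for Ighm, -8.25 for Igkc and -7.58 for Jchain in edgeR. Ighd missed the threshold without all replicates 3 (edgeR adjusted p = 0.0504), and Jchain without all replicates 1 (edgeR adjusted p = 0.146). The tumor minus spleen log2 fold change of Ighm was also 1.62 higher in Treg than in T4 and T8. It was the 1 of 10 members called there, where 5.32% of genes were called higher. Igha, Ighg1, Ighg2b, Ighg2c, Ighg3 and Iglc1 had no usable estimate in that contrast. All of these but Ighg1 had none in the contrast of myeloid and T cell sorts.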

How the results depend on the processing

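The 37 results for a called member kept their direction under every alternative run. Leaving out libraries kept the call in 395 fits and lost it in 14, and the other settings kept it in 203 and lost it in 5; the cause was not tested. The sum of the 10 members with TMM effective library sizes was 163 CPM in tumor DC at 12 months, 825 CPM in spleen T4 at 12 months, and 224 and 374 CPM in tumor T4 at 12 and 3 months, against 133, 934, 247 and 392 CPM with library totals.

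The number of members called for age moved most. In spleen DC it was 1, and 2 with no filter, 2 by DESeq2, 0 with all 4 groups, 0 with the age tags, 9 without the libraries with conflicting labels (1 male library against 1, so no test of age), and 0 to 6 leaving out 1 library. In spleen T4 it was 1, and 3 with no filter, 0 with all 4 groups and 0 to 1 leaving out 1 library. It was 1 in place of 0 in spleen MF without the 3 libraries led by a single pair, in spleen Treg with no filter, in tumor T4 by DESeq2, in spleen T8 with no filter and by DESeq2, and over all sorts in spleen without DC, where leaving out a replicate gave 0 to 1. For spleen Treg minus T4 and T8 it was 1, 3 without the 5 libraries led by a single pair, and 1 to 2 leaving out a replicate. DESeq2 gave no adjusted p for some members with few counts.

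Replicate numbers were not treated as pairs in the main fits. No comparison between groups of a sort had a correlation above 0.1 in each of 3 or more pairs (range -0.05 to 0.381). So few pairs cannot show whether libraries with the same number came from the same mouse, and different sorts of a tissue were not compared. With a replicate block the number of members called for age was 1 in spleen MF, 0 in spleen T4, 1 in tumor T4, 1 in spleen T8 and 1 in tumor T8. In that edgeR fit Igkc was higher at 12 months in spleen MF (1.77, adjusted p = 0.00691) and in tumor T8 (2.92, adjusted p = 0.000858). Ighm was lower at 12 months in tumor T4 (-0.74, adjusted p = 0.0215) and in spleen T8 (-0.38, adjusted p = 0.00856).

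Over all genes, the number called was 0 for age in spleen MF, against 53 with no filter, 12 by DESeq2, 6 with the replicate block and 4 without the libraries led by a pair. It was 75 in spleen DC, against 425, 303 and 153 under the first 3 of these settings, 0 with all 4 groups or the age tags, 47 without sex and 342 without the conflicting libraries, and 460 in spleen T4, against 839 with no filter, 881 by DESeq2 and 88 to 2400 leaving out 1 library. For DC tissue it was 6583, and 4375 without the conflicting libraries. It was 119 in spleen T8 against 192 with no filter or by DESeq2 and 75 with all 4 groups, 6 in spleen Treg against 56, 26, 12 with the block and 3 with all 4 groups, 4 in tumor T4 against 51, 40, 116 and 8 in the same order, and 157 over all sorts in spleen against 28 without T4. In tumor it was 0 in MF, DC, Treg and T8, against 43, 4, 41 and 39 with no filter and 3, 2, 7 and 12 by DESeq2. Interactions had 98 in T4 against 261 and 200, 19 in T8 against 81, 48 and 37 with the block, 0 in MF, DC and Treg against 5, 50 and 13 with no filter, and 28 over all sorts against 1 without T4.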
